A study of Mus musculus with 12 samples.

Results

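Solute carriers are membrane proteins that move sugars, amino acids, ions, metals, vitamins, nucleotides and metabolites across the plasma membrane and the membranes of organelles. Of the 15687 genes measured in these tumors, 253 had a solute carrier symbol of the pattern Slc followed by a family number, a letter and a member number. The 191 genes described here are those whose mean reached 100 normalized counts over the 6 CTL tumors or over the 6 *Filip1l*-knockdown tumors, without *Slc2a1*. They comprise 174 genes that reached this level in both groups, 7 that reached it in CTL tumors only and 10 that reached it in knockdown tumors only. The measured levels chose these genes, so a gene that entered through 1 group had to differ, and the values of those 17 genes are a description. The call thresholds are met by 8 of the 17, and calls are counted below with and without them. The products of 4 genes, *Slc9a3r1*, *Slc9a3r2*, *Slc4a1ap* and *Slc7a6os*, carry the symbol but are not carriers themselves. Just inside the level stood *Slc46a3*, with means of 67.7 normalized counts in CTL and 106 in knockdown tumors, and *Slc27a3*, with 107 and 60.5. Just outside stood *Slc22a4*, with 98.4 and 48.0, and *Slc22a21*, with 56.5 and 94.8.

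The tumors grew from the mouse lung cancer line mTc11, whose cells were mixed with growth factor-reduced Matrigel and injected under the skin of male C57BL6/J mice aged 8 weeks. CTL tumors came from cells with a control shRNA, and knockdown tumors from cells with an shRNA against *Filip1l*. Both carried a lentiviral vector and had been selected with puromycin as mixed clones, and which of the study's shRNA targets the sequenced tumors held was not given in the sources used here. The tumors were taken on day 24, and bulk polyA RNA was sequenced from 6 tumors per group, with 17834745 to 32419578 reads on the listed genes in each tumor. A tumor in such a host also holds the vessels, immune cells, fibroblasts and neighboring tissue of the mouse, so fewer cells of a type and less RNA per cell cannot be told apart. *Filip1l* itself ranged from 1983 to 2542 normalized counts in CTL tumors (median 2354) and 1670.1 to 2184 in knockdown tumors (median 1935). Its log2 fold change was -0.26 (SE 0.073, limma adjusted p = 0.00998), and the groups overlapped.

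Across all 15687 genes, 10.2% were called different between the groups, which required both a Benjamini-Hochberg adjusted p under 0.05 from limma and a change of over 1 in size on the log2 scale. Higher calls made up 6.20% and lower calls 3.97% of all genes. Among the epithelial markers, the summed level of 5 genes ranged from 135208 to 175847 normalized counts in CTL and from 188323 to 352178 in knockdown tumors, and 3 of them were called higher. The 7 listed intestinal epithelial markers summed to 15359 to 21471 in CTL and 48991 to 109075 in knockdown tumors, with 6 called higher, among them *Cdx2* and *Vil1*. Of 8 lung epithelial markers, *Sftpa1* and *Scgb1a1* were not analysed here, and *Nkx2-1*, the transcription factor that defines lung epithelium, had a mean of 17.2 in CTL and 39.4 in knockdown tumors. Of the 6 measured, 1 was called higher (*Sftpb*) and 1 lower (*Foxj1*). Skeletal muscle markers were called higher in 19 of 21 cases, and their sum ranged from 3621 to 17494 in CTL and from 8397 to 129602 in knockdown tumors. Neutrophil markers were called higher in 6 of 8 cases, and the other 2 had log2 fold changes below 0. The neutrophil sums overlapped, with 1792 to 2490 in CTL (median 2322) and 1713 to 3488 in knockdown tumors (median 2450). Erythroid markers were called higher in 4 of 5 cases, with sums of 203 to 599 in CTL and 774 to 1585 in knockdown tumors. Among the other lists, 1 of 10 macrophage, 2 of 6 adipocyte and 0 of 9 T cell markers were called, and no fibroblast (8) or endothelial (7) marker passed both thresholds, although 6 endothelial markers were higher and 2 fibroblast markers lower at the adjusted p alone. The part of these cell types in the results that follow was not tested, except that the mean log2 value of the skeletal muscle markers was entered as a covariate.

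Most solute carriers use the gradient of sodium, of protons or of the substrate itself in place of ATP. Epithelia of the gut and airway line up different carriers on their apical and basal sides, and tumor cells are known for raised uptake of glucose and amino acids and for lactate export. The promoters of 3 carriers are shown to set carriers that differed in opposite directions side by side: *Slc16a3*, which rose, *Slc6a20a*, which was low in CTL tumors, and *Slc10a2*, which was low in knockdown tumors. Each window runs from 250 bases before to 50 bases after the start annotated by RefSeq on GRCm38.p6, 5′ to 3′ on the strand of the gene. Capitals mark ACGTG, or CACGT where it lies on the other strand, a motif chosen after the values were seen. It is a form of the core bound by hypoxia-inducible factors. The form GCGTG was not searched for and is left unmarked. The *Slc16a3* window is chr11:120948817-120949116 on the + strand, that of *Slc6a20a* is chr9:123678783-123679082 on the - strand, and that of *Slc10a2* is chr8:5105238-5105537 on the - strand.
Slc16a3: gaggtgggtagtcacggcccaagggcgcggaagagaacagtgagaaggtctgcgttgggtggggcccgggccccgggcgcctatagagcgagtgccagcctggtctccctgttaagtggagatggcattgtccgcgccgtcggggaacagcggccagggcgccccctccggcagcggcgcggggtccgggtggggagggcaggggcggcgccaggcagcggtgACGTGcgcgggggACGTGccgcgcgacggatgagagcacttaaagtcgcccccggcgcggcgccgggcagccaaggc
Slc6a20a: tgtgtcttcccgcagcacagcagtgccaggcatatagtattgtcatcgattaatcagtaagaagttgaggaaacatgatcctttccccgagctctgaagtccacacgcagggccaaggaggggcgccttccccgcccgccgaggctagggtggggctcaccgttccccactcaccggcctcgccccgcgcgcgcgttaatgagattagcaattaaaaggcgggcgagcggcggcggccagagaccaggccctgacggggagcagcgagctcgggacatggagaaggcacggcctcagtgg
Slc10a2: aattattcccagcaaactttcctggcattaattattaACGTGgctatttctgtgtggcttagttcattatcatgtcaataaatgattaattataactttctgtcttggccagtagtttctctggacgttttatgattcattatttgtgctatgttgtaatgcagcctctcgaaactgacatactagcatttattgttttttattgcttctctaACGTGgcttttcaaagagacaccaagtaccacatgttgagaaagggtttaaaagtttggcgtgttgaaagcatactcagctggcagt
ACGTG stood at 2 places in the *Slc16a3* window and at 2 places in the *Slc10a2* window, and at none in that of *Slc6a20a*. Over the 32851 windows of all genes, 19.6% held it. RefSeq windows were found for 144 of the 191 genes, and 26.2% of their windows held ACGTG. It was in 2 of the 10 windows of genes called higher and 1 of the 6 windows of genes called lower. The 2 genes with opposite direction therefore both carried it, and a match is a description of the letters only.

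Of the 191 genes, 13 were called higher and 7 lower in knockdown tumors, together 10.5%, against 10.2% of all genes. The other 171 were not called. Among the 174 that reached the level in both groups, 8 were called higher and 4 lower (6.90%), and 632 of the 11337 genes of any kind that reached it in both groups were called (5.57%). At the adjusted p alone, 63 of the 174 were higher and 32 lower, together 54.6%, against 41.9% of all genes and 45.4% of the genes that reached the level in both groups. By direction, 21.1% of all genes were higher and 20.7% lower at the adjusted p alone. Among the 11337 genes at the level in both groups, 2511 were higher and 2639 lower. The class and chromosome counts below are to be read beside these shares. The 6 CTL and 6 knockdown values did not overlap for 58 of the 174 genes (33.3%), against 21.5% of all genes and 23.7% of the genes that reached the level in both groups. The median log2 fold change of the 174 genes was 0.074, and that of all genes was 0.0078. Since the level that chose the genes comes from the same tumors, these counts describe the family and are no test of it.

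**Figure D1:**
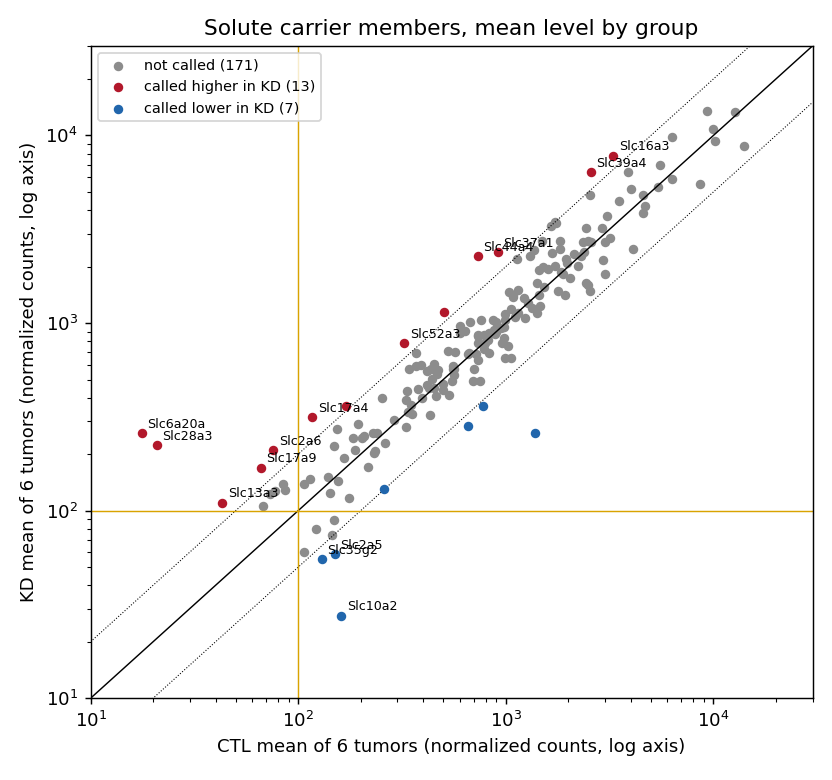
Mean level of each of the 191 solute carrier genes in CTL tumors (x axis) and knockdown tumors (y axis), in normalized counts on log axes, each over 6 tumors. Yellow lines mark the level of 100, the solid line equal means and dotted lines 2-fold, with 13 genes called higher (red) and 7 called lower (blue), and with *Slc6a20a* and *Slc28a3* far above and *Slc10a2* far below equality.

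Organic ion and drug carriers move compounds as different as carnitine and drugs. Of this class, the carnitine carrier *Slc22a5* ranged from 510.4 to 613 normalized counts in CTL tumors (median 575) and 637 to 732 in knockdown tumors (median 717), and its log2 fold change was 0.30 (SE 0.063, limma adjusted p = 0.00172). *Slc22a18* changed by 0.54 (SE 0.15, limma adjusted p = 0.01). Of the 6 genes in this class, 3 were higher and 1 lower at the adjusted p.

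Of the 4 carboxylate carriers of the Slc16 family, 3 were higher in knockdown tumors at the adjusted p. *Slc16a3* (ENSMUSG00000025161, chromosome 11 from 120948480 to 120960868 on the + strand, GRCm38) encodes MCT4, the lactate exporter of glycolytic cells, and ranged from 2789 to 3979 normalized counts in CTL tumors (median 3252) and 5481 to 9131 in knockdown tumors (median 8005). The groups did not overlap, and its log2 fold change was 1.24 (SE 0.12, limma adjusted p = 3.49e-06). *Slc16a1*, which encodes the lactate and pyruvate carrier MCT1, ranged from 2185 to 2584 normalized counts in CTL tumors (median 2455) and 2577 to 3577 in knockdown tumors (median 3206), with a log2 fold change of 0.38 (SE 0.076, limma adjusted p = 0.00101) and groups that overlapped at 1 value each. The fourth, *Slc16a13*, named after its values were seen, did not pass the test (0.057, limma adjusted p = 0.73). *Slc16a6*, a ketone body carrier named after its values were seen, went from 371 ± 23.5 to 693 ± 84.8 normalized counts (mean ± SD, n = 6) and by 0.89 (SE 0.085, limma adjusted p = 2.37e-06) on the log2 scale. Per kb of exon, *Slc16a3* stood at 619 and 1468 normalized counts in CTL and knockdown tumors. *Bsg*, the chaperone that brings MCT1 and MCT4 to the membrane, measured 29253 ± 3767 in CTL and 46047 ± 11438 in knockdown tumors, a log2 fold change of 0.62 (SE 0.16, limma adjusted p = 0.00737). *Emb*, an alternative chaperone of MCT1, measured 523 ± 76.9 in CTL and 502 ± 258 in knockdown tumors, and its change did not pass the test (-0.17, limma adjusted p = 0.6). *Mpc1* and *Mpc2*, which form the mitochondrial pyruvate carrier under other symbols, changed by 0.63 (SE 0.10, limma adjusted p = 1.92e-04) and 0.41 (SE 0.098, limma adjusted p = 0.00403). The carboxylate class had a median log2 fold change of 0.64 over the 4 genes that reached the level in both groups, the highest of the classes with 4 or more such genes.

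The choline carriers of the Slc44 family moved in both directions. *Slc44a4*, an apical choline-like carrier that also moves thiamine pyrophosphate in the gut, ranged from 453 to 1010.4 normalized counts in CTL tumors (median 756) and 1441 to 2882 in knockdown tumors (median 2399.8). Every knockdown tumor lay above every CTL tumor, and the log2 fold change was 1.64 (SE 0.20, limma adjusted p = 2.03e-05). *Slc44a3* of the same family ranged from 390.0 to 640.1 normalized counts in CTL tumors (median 473) and 873 to 1494 in knockdown tumors (median 1176), changing by 1.19 (SE 0.15, limma adjusted p = 2.54e-05) on the log2 scale. The choline carrier *Slc44a1* rose from 2532 ± 291 to 4831 ± 422 normalized counts, or by 0.94 (SE 0.082, limma adjusted p = 1.21e-06), just under the fold threshold. *Slc44a2*, the remaining member and named after its values were seen, fell from 3010.5 ± 270.0 to 1831 ± 347, a log2 change of -0.73 (SE 0.11, limma adjusted p = 1.06e-04). All 4 Slc44 genes thus had groups that did not overlap, 3 higher and 1 lower. Among fatty acid carriers, *Slc27a4* did not pass the test (0.16, limma adjusted p = 0.0578).

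*Slc10a2*, the apical sodium-dependent bile acid carrier of the ileum, passed the level through CTL tumors only. It held 69.0 to 264 normalized counts in CTL tumors (median 138) and 22.5 to 43.4 in knockdown tumors (median 24.5). CTL tumors differed widely among themselves (253 and 264 in replicates 6 and 5 against 69.0 in replicate 1), and all 6 knockdown tumors lay below the lowest of them. The basolateral bile acid carrier subunit *Slc51a*, from the list of solute carriers under other symbols, was near the floor of 3 reads in CTL tumors, at 2.34 ± 1.38 normalized counts, and stood at 91.3 ± 43.3 in knockdown tumors. Another basolateral bile acid carrier, *Slc10a1*, which is under the level, did not pass the test (means of 14.9 ± 28.2 in CTL and 17.6 ± 19.6 in knockdown tumors). Its values were high in CTL replicate 5 (71.7) and knockdown replicates 1 (37.3) and 2 (46.9), and 0 to 12.2 in the other tumors.

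Zinc carriers were led by *Slc39a4*. It encodes ZIP4, the apical carrier through which the gut takes up dietary zinc, and ranged from 1993 to 3411 normalized counts in CTL tumors (median 2538) and 4052 to 7849 in knockdown tumors (median 6665). The groups did not overlap, and the log2 fold change was 1.30 (SE 0.16, limma adjusted p = 1.63e-05). *Slc39a1*, the zinc carrier with the highest level per kb of exon (2299 and 2251 normalized counts per kb in CTL and knockdown tumors), did not pass the test (-0.031, limma adjusted p = 0.638). The same held for the zinc exporter *Slc30a1* (-0.073, limma adjusted p = 0.591) and for *Slc39a8* (0.11, limma adjusted p = 0.592). Of the 17 zinc carriers, 6 were higher and 3 lower at the adjusted p, with a median log2 fold change of 0.071. *Slc39a11* and *Slc39a14* were the next highest after *Slc39a4*, at 0.95 and 0.86, and the 3 lower genes were *Slc39a10* (-0.78), *Slc39a13* (-0.60) and *Slc39a6* (-0.32), all named after their values were seen. All 3 lower genes and 4 of the 6 higher ones belong to the Slc39 importers.

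Iron and related metal carriers gave no call past the fold threshold. *Slc11a2*, the divalent metal carrier DMT1, ranged from 519 to 707 normalized counts in CTL tumors (median 597) and 887 to 1013 in knockdown tumors (median 970.5), changing by 0.68 (SE 0.075, limma adjusted p = 7.47e-06) on the log2 scale. The iron exporter *Slc40a1* (ferroportin) changed by 0.39 (SE 0.086, limma adjusted p = 0.00223). The heme carrier *Slc48a1* had the highest level per kb of this class and fell by 0.23 on the log2 scale (SE 0.048, limma adjusted p = 0.00134). *Slc11a1*, the phagosomal metal carrier of macrophages, ranged from 295 to 395 normalized counts in CTL tumors (median 324) and 290.0 to 584 in knockdown tumors (median 334) and did not pass the test (0.20, limma adjusted p = 0.368). Its highest knockdown values, 584 and 503 in replicates 1 and 3, belonged to the 2 knockdown tumors with the highest sums of the 10 macrophage markers (26572 and 21356). The CTL tumors did not show this match. Their highest value, 395, was in replicate 1, with a sum of 18489. Their highest sum, 23356, was in replicate 3, with a value of 325. The part of macrophages was not tested. Over the 9 iron, copper, magnesium and heme carriers, 4 were higher and 2 lower at the adjusted p.

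Sugar and polyol carriers gave calls in both directions. *Slc37a1*, a glucose-6-phosphate and phosphate exchanger of the endoplasmic reticulum, ranged from 747 to 1125 normalized counts in CTL tumors (median 883) and 1573 to 2801 in knockdown tumors (median 2478). Its groups did not overlap, and the log2 fold change was 1.38 (SE 0.15, limma adjusted p = 8.27e-06). *Slc45a3*, a carrier of the sugar family known from prostate epithelium, ranged from 126 to 224 normalized counts in CTL tumors (median 166) and 187 to 469.5 in knockdown tumors (median 385). The lowest knockdown tumor lay within the CTL range, and the log2 fold change was 1.05 (SE 0.20, limma adjusted p = 7.04e-04). This call was lost without CTL replicate 3 (0.967), knockdown replicate 5 (0.96) or knockdown replicate 6 (1.00, just under the threshold). *Slc5a3*, which takes up the osmolyte myo-inositol, fell, with 641 to 1032 normalized counts in CTL tumors (median 740.4) and 204 to 466 in knockdown tumors (median 391) and a log2 fold change of -1.12 (SE 0.17, limma adjusted p = 1.53e-04). Without knockdown replicate 6 it was -0.96, under the fold threshold. The *Slc5a3* gene shares exons with *Mrps6* on the same strand, so reads in the shared exons cannot be told apart.

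The glucose carrier *Slc2a3*, known from neurons and leukocytes, had means of 176 ± 17.5 in CTL and 116 ± 26.4 in knockdown tumors, changing by -0.62 (SE 0.15, limma adjusted p = 0.00503) on the log2 scale. *Slc50a1*, the sugar carrier with the highest level per kb in this class, did not pass the test (0.17, limma adjusted p = 0.117). *Slc2a5*, the fructose carrier of the gut, passed the level through CTL tumors only and held 122 to 231 normalized counts in CTL tumors (median 135) and 33.4 to 76.9 in knockdown tumors (median 62.5). *Slc2a6*, a lysosomal glucose carrier, passed through knockdown tumors only and held 51.1 to 142 normalized counts in CTL tumors (median 65.1) and 112 to 303 in knockdown tumors (median 218). CTL replicate 3 was the highest CTL tumor for both genes.

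**Figure D2:**
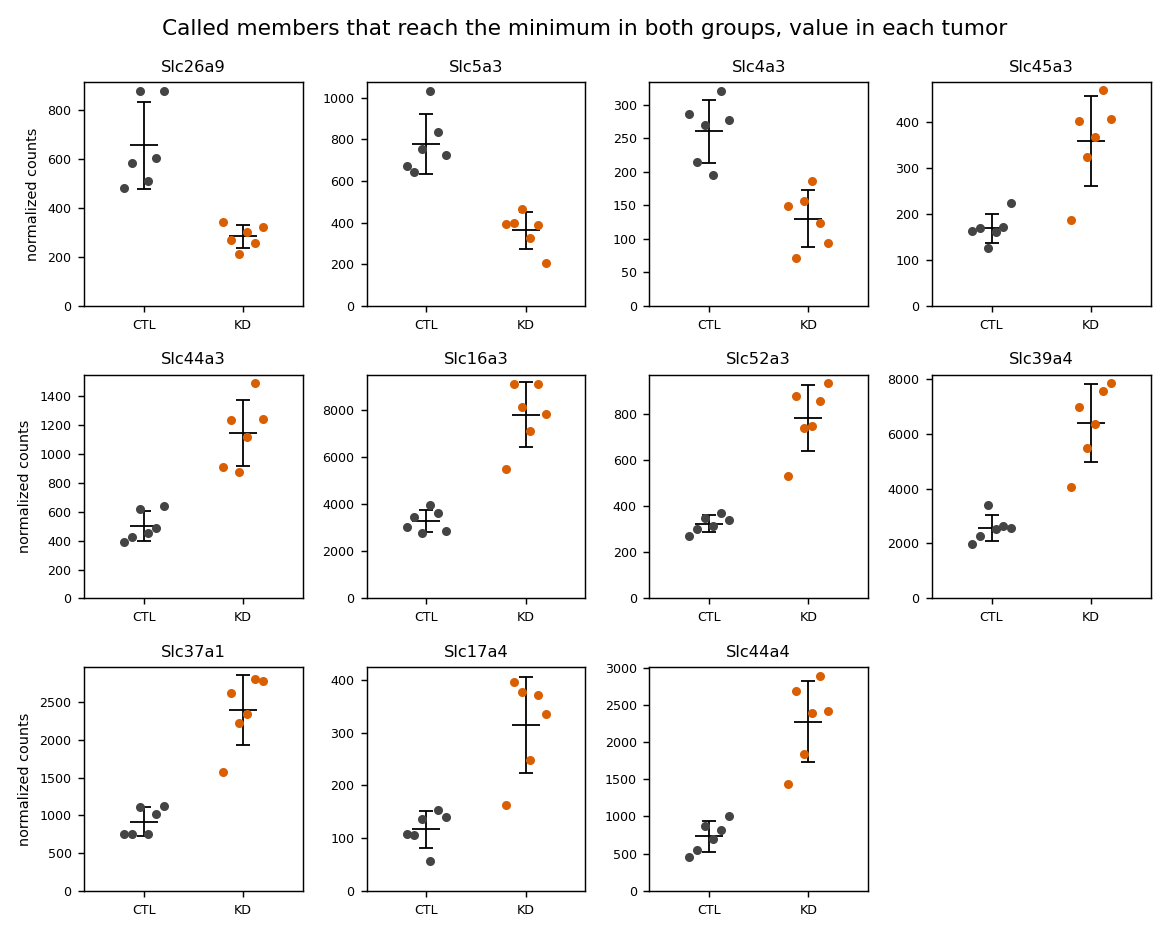
Normalized counts of 11 called genes that reached the level in both groups, 1 panel each, with 1 point per tumor (grey CTL, orange knockdown) and the mean ± SD of 6 tumors in black. The axes start at 0 and differ between panels, and the groups overlap for *Slc45a3* only.

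Chloride and bicarbonate carriers held 2 of the 4 lower calls. *Slc26a9*, a chloride channel and exchanger of gastric and airway epithelium, ranged from 481 to 879 normalized counts in CTL tumors (median 592) and 212 to 344 in knockdown tumors (median 286). The CTL values fell in a wide range, but the lowest of them lay above the highest knockdown value, and the log2 fold change was -1.18 (SE 0.17, limma adjusted p = 6.52e-05). The gastric epithelial markers gave 2 higher calls (*Gkn1*, *Gkn2*) and 1 lower (*Tff2*) of 7, and their part was not tested. The chloride and bicarbonate exchanger *Slc4a3* ranged from 195 to 321 normalized counts in CTL tumors (median 273) and 71.8 to 186 in knockdown tumors (median 136), changing by -1.04 (SE 0.21, limma adjusted p = 0.00125). This call was lost without CTL replicate 5 (-0.98), knockdown replicate 2 (-0.89) or knockdown replicate 6 (-0.96), and with a pseudocount of 8 (-0.9997). *Slc12a2*, the sodium, potassium and chloride cotransporter NKCC1 and the gene with the highest normalized count of its class in CTL tumors, ranged from 12012 to 15908 normalized counts in CTL tumors (median 14106) and 7624 to 10988 in knockdown tumors (median 8282). Its groups did not overlap, with a log2 fold change of -0.68 (SE 0.092, limma adjusted p = 4.57e-05). The sodium bicarbonate cotransporter *Slc4a4* did not pass the test (-0.15, limma adjusted p = 0.182). Over the 13 anion carriers that reached the level in both groups, 4 were higher and 5 lower at the adjusted p, and the median log2 fold change was -0.15. The highest of them was the sodium bicarbonate cotransporter *Slc4a7*, named after its values were seen, at 0.90 (SE 0.12, limma adjusted p = 3.18e-05). Of the 8 sodium-proton and sodium-calcium exchangers, 1 was higher and none lower at the adjusted p, with 0 called.

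Amino acid carriers, which feed protein synthesis, gave 0 calls among the 23 that reached the level in both groups, with 5 higher and 5 lower at the adjusted p and a median log2 fold change of -0.065. These counts are near the shares of all genes, 21.1% higher and 20.7% lower. *Slc1a5*, the glutamine carrier ASCT2, ranged from 1532 to 2095 normalized counts in CTL tumors (median 1847) and 2228 to 3086 in knockdown tumors (median 2835), and its groups did not overlap. Its log2 fold change was 0.58 (SE 0.089, limma adjusted p = 1.33e-04). The glutamine carrier *Slc38a2* moved the opposite way, ranging from 7243 to 9402 normalized counts in CTL tumors (median 8916) and 4472 to 6219 in knockdown tumors (median 5601). Its groups did not overlap either, with a log2 fold change of -0.65 (SE 0.084, limma adjusted p = 3.43e-05). Both genes were abundant in every tumor.

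The subunits of the leucine carrier LAT1 moved little. *Slc3a2*, the heavy chain, ranged from 4300.1 to 5294 normalized counts in CTL tumors (median 4539) and 3960.5 to 4397 in knockdown tumors (median 4177), a log2 fold change of -0.16 (SE 0.058, limma adjusted p = 0.0389). *Slc7a5*, the light chain, differed by -0.0073 (limma adjusted p = 0.954), with means of 2292 ± 227 in CTL and 2284 ± 258 in knockdown tumors, which differed by less than either SD. Its relative *Slc7a8* (LAT2) did not pass the test (0.22, limma adjusted p = 0.305). *Slc7a11*, the cystine and glutamate exchanger xCT, showed the largest spread of this class in knockdown tumors together with the cationic amino acid carrier *Slc7a2*. *Slc7a11* held 158 to 230 normalized counts in 5 knockdown tumors and 663 in knockdown replicate 1, against 300.4 to 367 in CTL tumors. The other knockdown tumors thus lay below all CTL tumors, and replicate 1 above them, and the log2 fold change was -0.43 (SE 0.26, limma adjusted p = 0.206) over all tumors and -0.72 without replicate 1. *Slc38a1* likewise held 149 to 199 in 5 knockdown tumors and 372 in replicate 1, with a log2 fold change that did not pass the test (-0.23, limma adjusted p = 0.378).

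*Slc6a20a*, the sodium-dependent proline and imino acid carrier of gut and kidney epithelium, passed the level through knockdown tumors only. It held 12.3 to 28.4 normalized counts in CTL tumors (median 15.8) and 202 to 367 in knockdown tumors (median 249), a ratio of means of 14.6. The lowest knockdown tumor lay far above the highest CTL tumor. The chemokine receptor gene *Ccr9* is annotated across its exons on the opposite strand, and without strand the reads of these 2 genes cannot be told apart.

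Nucleoside carriers showed the same kind of entry. *Slc28a3*, the concentrative nucleoside carrier CNT3, passed through knockdown tumors only and held 13.0 to 29.9 normalized counts in CTL tumors (median 21.9) and 176 to 281 in knockdown tumors (median 219), a ratio of means of 10.7. *Slc17a9*, which loads nucleotides into vesicles, also passed through knockdown tumors only and held 52.9 to 72.9 normalized counts in CTL tumors (median 67.5) and 138 to 229 in knockdown tumors (median 164). In contrast, the equilibrative carrier *Slc29a1*, with the highest level per kb of the class, ranged from 3948 to 5141 normalized counts in CTL tumors (median 4652) and 3553 to 4343 in knockdown tumors (median 3762), and changed by -0.24 (SE 0.072, limma adjusted p = 0.0143) on the log2 scale.

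Vitamin carriers were higher or did not pass the test. *Slc52a3*, the riboflavin carrier of the gut, ranged from 270.0 to 370.5 normalized counts in CTL tumors (median 329) and 533 to 937 in knockdown tumors (median 803), and every knockdown tumor lay above every CTL tumor. Its log2 fold change was 1.25 (SE 0.13, limma adjusted p = 3.62e-06). *Slc46a1*, the proton-coupled folate carrier, changed by 0.61 (SE 0.15, limma adjusted p = 0.00515), and the thiamine carrier *Slc19a2* by 0.24 (SE 0.07, limma adjusted p = 0.0142). Of the 7 vitamin carriers that reached the level in both groups, 5 were higher and 0 lower at the adjusted p, and the median log2 fold change was 0.37. For all genes the shares were 21.1% higher and 20.7% lower. In the phosphate class, *Slc17a4*, an anion carrier of the gut, ranged from 56.8 to 154 normalized counts in CTL tumors (median 123) and 163 to 396 in knockdown tumors (median 354), with a log2 fold change of 1.43 (SE 0.26, limma adjusted p = 4.96e-04). Of the sodium phosphate cotransporters, *Slc20a1* did not pass the test (0.15, limma adjusted p = 0.263), and *Slc20a2*, named after its values were seen, was lower with groups that did not overlap (-0.43 (SE 0.078, limma adjusted p = 5.45e-04)).

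Nucleotide sugar carriers bring the substrates of glycosylation into the Golgi and endoplasmic reticulum. Of the 21 genes of this class and of acetyl-CoA carriage that reached the level in both groups, 11 were higher and 3 lower at the adjusted p, none past the fold threshold, with a median log2 fold change of 0.20. *Slc35c1*, the GDP-fucose carrier, ranged from 1415 to 1819.8 normalized counts in CTL tumors (median 1714) and 2214 to 3931 in knockdown tumors (median 3368), and its log2 fold change was 0.99 (SE 0.12, limma adjusted p = 2.02e-05), just under the threshold. It passed the threshold without CTL replicate 3 (1.02), 4 (1.01) or 5 (1.003) and without knockdown replicate 1 (1.10). *Slc35a3*, the UDP-N-acetylglucosamine carrier and named after its values were seen, rose from 1748 ± 108 to 3431 ± 384 normalized counts, or by 0.97 (SE 0.073, limma adjusted p = 3.19e-07). *Slc35a4* had the highest level per kb of the class and changed by 0.20 (SE 0.06, limma adjusted p = 0.0136). *Slc35g2*, an orphan member, passed the level through CTL tumors only and held 100.1 to 193 normalized counts in CTL tumors (median 121) and 38.2 to 87.5 in knockdown tumors (median 46.4).

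Of the 191 genes, 2 mitochondrial carriers of the Slc25 family had the highest levels per kb of exon in both groups. The adenine nucleotide carriers *Slc25a4* and *Slc25a5*, which exchange ADP for ATP, stood at 4321 and 3973 and at 3858 and 5971 normalized counts per kb of exon in CTL and knockdown tumors. *Slc25a5* rose, with 5597 to 7359.9 normalized counts in CTL tumors (median 6201) and 8183 to 11896 in knockdown tumors (median 9781) and a log2 fold change of 0.62 (SE 0.099, limma adjusted p = 1.91e-04). *Slc25a4*, the form known from heart and skeletal muscle, did not pass the test (-0.12, limma adjusted p = 0.318). Of the 32 mitochondrial carriers that reached the level in both groups, 11 were higher and 3 lower at the adjusted p, 0 passed the fold threshold, and the median log2 fold change was 0.074. Their log2 fold changes ran from -0.69 to 0.62. An unadjusted limma p under 0.05 was counted in the 5 classes of 8 or more genes with 0 calls by limma. It was reached by 18 of the 32 mitochondrial, 13 of the 23 amino acid, 15 of the 21 nucleotide sugar, 6 of the 9 metal and 3 of the 8 exchanger genes. At least 41.9% of all genes, and 45.4% of those at the level in both groups, reached it too, since these shares passed the adjusted p. The quasi-likelihood test of edgeR, run on the reads that could be recovered for 9 tumors, called 1 gene of these 5 classes (*Slc35c1*). The creatine carrier *Slc6a8*, named after its values were seen, lay under the fold threshold, rising from 1729 ± 113 to 3454 ± 364 normalized counts, which is 0.99 (SE 0.072, limma adjusted p = 2.30e-07) on the log2 scale. It passed the threshold with edgeR (1.04), without CTL replicate 1, 5 or 6 and without knockdown replicate 1, 3 or 6 (1.003 to 1.04). The taurine carrier *Slc6a6* did not pass the test (0.13, limma adjusted p = 0.162). Of the peptide carriers, the lysosomal *Slc15a4* changed by -0.32 (SE 0.11, limma adjusted p = 0.0349). The scaffold *Slc9a3r1* (NHERF1), which is not a carrier and binds apical carriers to the cytoskeleton, rose by 0.70 (SE 0.11, limma adjusted p = 1.90e-04), and its relative *Slc9a3r2* changed by -0.72 (SE 0.06, limma adjusted p = 8.11e-07).

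**Figure D3:**
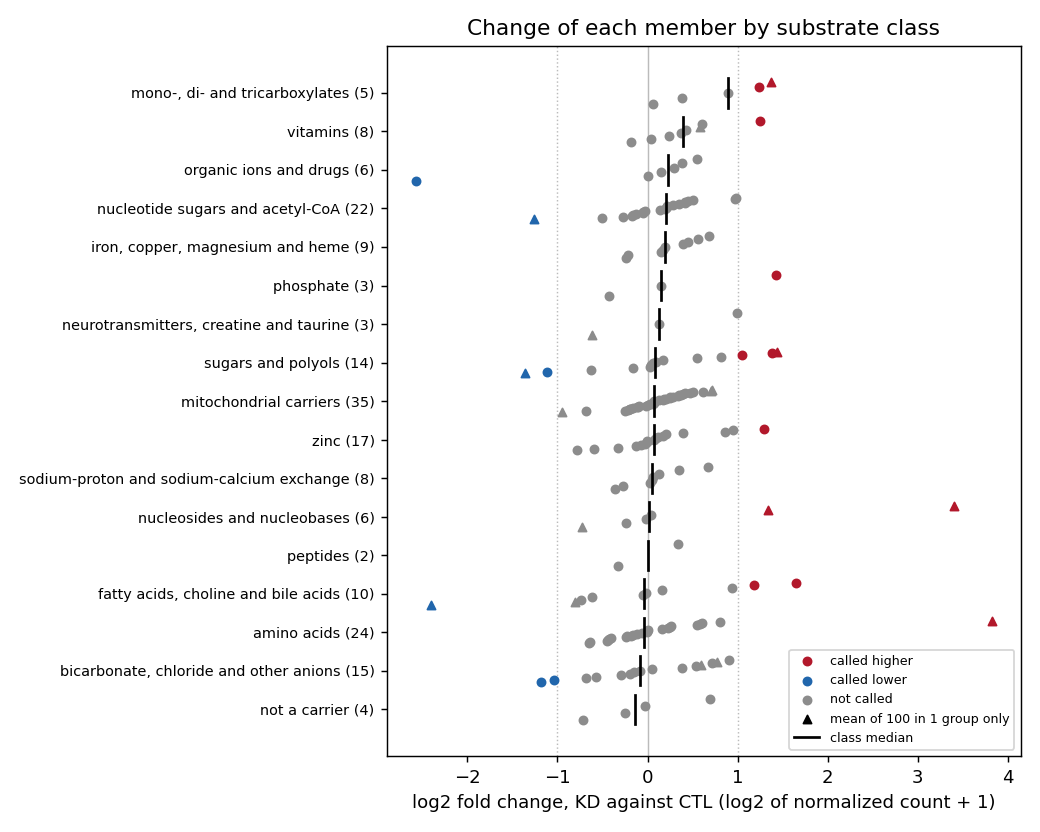
Log2 fold change of knockdown against CTL tumors for each of the 191 genes (x axis, on log2 of normalized count plus 1), grouped by substrate class with the number of genes in parentheses. Triangles mark genes that reached the level in 1 group only, black bars class medians over all members and dotted lines the fold threshold, and the carboxylate and vitamin classes stand at the top while calls in both directions occur among the sugar carriers.

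Position in the genome moved with the direction of some carriers. On chromosome 8, all 13 solute carrier genes that reached the level in both groups had log2 fold changes below 0, 7 of them lower and 0 higher at the adjusted p, with a median of -0.25. Genes of all kinds on chromosome 8 had a median shift of -0.196 in knockdown tumors relative to the CTL mean, from -0.221 to -0.162 in the 6 tumors. On chromosome 14, 4 of 6 carriers were higher and 0 lower at the adjusted p, and the median shift of the chromosome was 0.384. On chromosome 19 the shift was -0.354, and 1 of 5 carriers was higher and 2 lower. Over the whole genome, 21.1% of genes were higher and 20.7% lower at the adjusted p. The share among all genes of each chromosome was not counted. On the other chromosomes the shifts lay between -0.052 and 0.040.

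With each chromosome's median removed in each tumor, the members on these 3 chromosomes moved with it. *Slc3a2*, on chromosome 19, turned from -0.16 to 0.20 (limma adjusted p = 0.0118). *Slc4a7*, *Slc39a14* and *Slc7a7*, on chromosome 14, went from 0.90, 0.86 and 0.81 to 0.52, 0.48 and 0.42. *Slc10a2*, on chromosome 8, kept a log2 fold change of -2.20. None of the other 19 called carriers lies on these chromosomes. All 12 calls among the genes that reached the level in both groups remained, and *Slc6a8* was added.

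**Figure D4:**
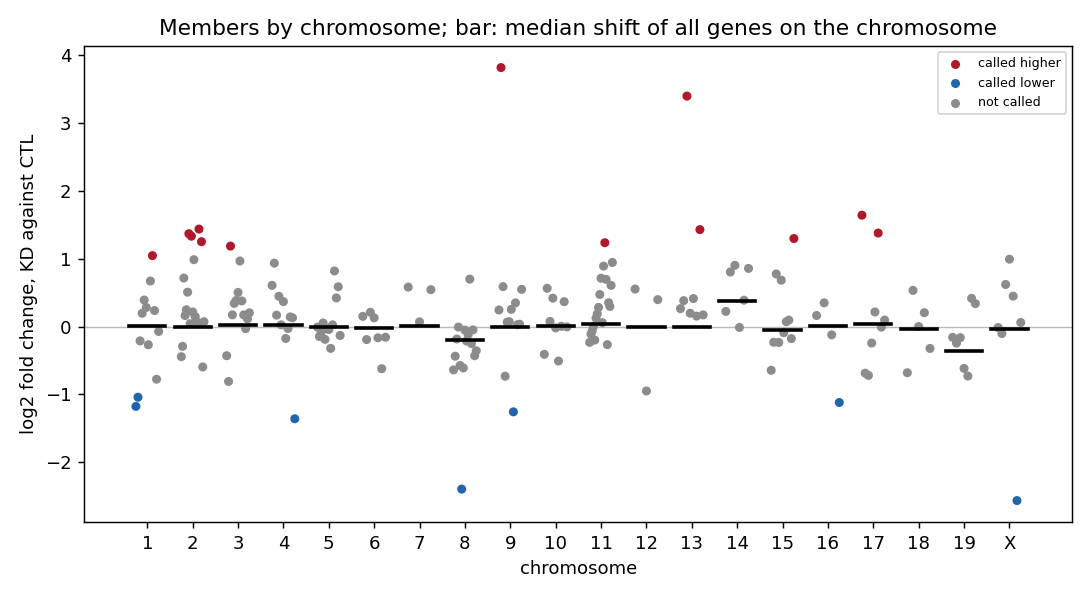
Log2 fold change of each of the 191 genes (y axis) by chromosome (x axis), coloured by call, with a black bar for the median shift of all genes on the chromosome between the groups. The bars of chromosomes 8, 14 and 19 lie away from 0, and on chromosome 8 most solute carriers lie below 0.

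The spread of the carriers within a group was small for most and large for a few. The median SD on the log2 scale was 0.148 in CTL and 0.162 in knockdown tumors over the 191 genes, and 0.146 and 0.156 over the 11757 genes with a mean of at least 100. Knockdown replicate 1 stood apart from its group over all genes, with a mean Euclidean distance to the other tumors of its group, on log2 values, of 93.9 against 77.0 to 81.0 for the other 5. It was the lowest or highest knockdown tumor for 96 of the 191 carriers, a count that CTL replicate 3 nearly matched in its own group (95), with 31 to 77 for the other tumors. It was the lowest for 7 of the 8 genes called higher that reached the level in both groups, all but *Slc44a3*. It had the lowest epithelial sum (188323, against 259325 to 352178 in the other knockdown tumors) and the lowest intestinal sum (48991, against 76178 to 109075). Its fibroblast sum was the highest (261507, against 79522 to 171258). So were its macrophage (26572, against at most 21356) and neutrophil sums (3488, against at most 2613). The T cell, endothelial and adipocyte sums were also highest in this tumor, and the gastric sum was lowest (4507, against at least 6842). The part of this makeup in the carrier values was not tested. All 12 calls among the genes that reached the level in both groups remained without this tumor, and the count over all 191 rose from 20 to 24.

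Skeletal muscle markers varied widely among the knockdown tumors. With the mean of their log2 values as a covariate, all 12 calls among the genes that reached the level in both groups remained. Of the 191 genes, 26 were called in place of 20. The call that was lost was *Slc13a3*, the sodium dicarboxylate carrier, which held 21.9 to 71.7 normalized counts in CTL tumors (median 36.9) and 42.8 to 141 in knockdown tumors (median 129.6) and passed the level through knockdown tumors only. It was not called by edgeR either (1.08, edgeR adjusted p = 0.0598). The 7 added were *Slc35c1*, *Slc6a8*, *Slc35a3*, *Slc44a1*, *Slc2a9*, *Slc25a35* and *Slc39a11*, all higher. Exons of 25 members overlap another listed gene in the annotation, 3 of them called (*Slc44a3*, *Slc5a3*, *Slc6a20a*).

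Companion genes of transport are given beside the 6.20% higher and 3.97% lower calls of all genes. Of 34 solute carriers listed under other symbols, 4 were called higher (*Slc51a*, *Mfsd2a*, *Rhbg*, *Ucp2*) and 0 lower, 11.8% in all, near the 10.2% of all genes. *Ucp2*, a mitochondrial carrier, measured 7707 ± 1289 in CTL and 15799 ± 2674 in knockdown tumors, a log2 fold change of 1.03 (SE 0.12, limma adjusted p = 1.67e-05). Of the 11 sodium pump subunits, which keep the gradient that many carriers use, 2 were called higher, among them *Fxyd2*, and 0 lower. With the mean log2 value of the muscle markers as a covariate, 0 pump subunits were called higher and 1 lower. Of the 17 carrier partners and regulators, 3 were called higher, among them *Wnk2* and *Chp2*, and 0 lower. Of 39 ABC transporters, which use ATP directly, 4 were called higher (*Abcg5*, *Abcg8*, *Abcc2*, *Abcc3*) and 1 lower (*Abcb1b*), 12.8% in all.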

How the data were processed

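RNA was measured in 12 tumors, mapped to 6 CTL and 6 knockdown tumors by their labels. Per the labels and the study's methods, the authors trimmed reads with Trimmomatic 0.36, aligned them with STAR 2.5.2b to mm10, counted unique hits with featureCounts (Subread 1.5.2) and divided counts by DESeq2 size factors. The deposited values are thus a normalized signal, comparable between tumors for 1 gene and not corrected for length. They hold 15687 genes, the lowest mean being 9.28, so a filter on low values at a mean of 5 removed none. GENCODE vM21 (GRCm38) gave positions and exon lengths for 99.8% of identifiers.

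A pseudocount of 1 was added to each value before taking log2. limma 3.58.1 (R 4.3.3) compared the groups over all genes, with a variance trend and Benjamini-Hochberg adjustment. A call needed an adjusted p under 0.05 and over 1 in size on the log2 scale, as in the study. The fold scale understates changes of low genes. The adjusted p-values set the difference between groups against the spread between tumors. The tumors were grafts of cells selected before injection. A fixed difference between the control and knockdown cells therefore cannot be told apart from an effect of the knockdown. The steps were tested on simulated data. All values (100%) were whole multiples of 1 step per tumor within 0.01 read. For the 9 tumors where the step differs clearly from 1 (4 CTL, 5 knockdown), edgeR 4.0.16 was run on the recovered reads as an alternative added after seeing the data, and called 1667 genes (10.6%). The floor of 3 reads covers counting error only.

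Carriers were put in substrate classes by family. Named genes are up to 3 called in each direction per class with a mean of 100 or more over all tumors, the gene with the highest level per kb, the nearest 2 on each side of the minimum, up to 3 in each direction that reached it in 1 group only, and carriers of known roles. Of the latter, *Slc15a1*, *Slc34a2*, *Slc5a1*, *Slc6a14* and *Slc9a3* were not analysed here, and a few other genes are not reported here, though counts over the family include them. The members and lists were chosen with earlier results of these data known. Replicate numbers did not pair tumors (correlations of same-numbered tumors from -0.269 to 0.0990) and no block was used in the comparison. Alternatives comprised a pseudocount of 0.5 or 8, dropping the filter or raising it to 20, rescaling to the 75th percentile or the total, and no trend. They also comprised a replicate block, chromosome medians removed, the mean log2 value of the muscle markers as a covariate, each tumor left out, and other minimum levels (50, 200). Figures were drawn with matplotlib 3.10.9.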

Additional observations from a re-analysis of the deposited data

Results flagged for a closer look

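Of 114 groups of 6 tumors examined for the named solute carriers, 9 held a tumor far from the other 5 by Dixon's criterion, which chance meets in about 1 in 20 groups. Knockdown replicate 1 accounted for 4 of them. It held 663 normalized counts of *Slc7a11* (next highest 230), 372 of *Slc38a1* (next 199) and 43.4 of *Slc10a2* (next 27.4), and with 569.8 of *Slc22a18* it was lower than the others (next 977). CTL replicate 3 was high for *Slc2a5* (231, next 156) and for *Slc2a6* (142, next 70.8). CTL replicate 1 was high for *Slc11a1* (395, next 326), and CTL replicate 4 for *Slc7a5* (2726, next 2324). Knockdown replicate 4 was high for *Slc19a2* (979, next 861).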

How the results depend on the processing

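The number of called solute carriers ranged from 18 to 26 over the alternatives that kept the minimum level, with 20 reported. Of the 12 calls among genes that reached the level in both groups, 9 to 12 were shared, the fewest without knockdown replicate 6. Without 1 tumor, 12 to 17 were called higher and 5 to 8 lower. Requiring the level in both groups gave 8 higher and 4 lower, and a minimum of 200 gave 4 lower. The replicate block changed no carrier's call (12 of 12 shared among those in both groups), although only 1 sodium pump subunit was called higher under it. The same count of 1 came with a pseudocount of 8 and with a filter at 20, and 1 to 3 without 1 tumor. With the mean log2 value of the muscle markers as a covariate it was 0, with 1 lower, and 1 other-symbol solute carrier and 2 ABC transporters were called lower. In that fit the mitochondrial median was 0.14 and *Filip1l* was at -0.28 (limma adjusted p = 0.0626), while *Slc11a1* (-0.082), *Slc30a1* (0.0010), *Slc39a1* (0.0075) and *Slc7a5* (0.055) turned sign, none past the test. With chromosome medians removed, the median of the 4 genes that are not carriers was -0.035, and *Slc25a4* (0.080), *Slc3a2* (0.20), *Slc7a5* (0.19) and *Slc7a8* (-0.16) turned sign, of which *Slc3a2* passed the adjusted p. The zinc median ranged from 0.012 to 0.090 without 1 tumor and was 0.0040 with edgeR. *Slc7a5* ranged from -0.045 to 0.044 without 1 tumor and was 0.042 with edgeR. The other solute carriers named by the stated rule kept their direction. For genes outside that rule, direction was not compared over all alternatives. The cause of these shifts was not tested. Rescaling to the total moved the median of all genes to -0.033. Depth limits carriers near the floor of 3 reads, 2.59 to 4.48 normalized counts per tumor.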

Other observations

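Several solute carriers under the minimum level were also higher in knockdown tumors, and are given as values chosen after they were seen. *Slc7a9* and *Slc3a1* encode the light and heavy chain of the cystine carrier of kidney and gut. CTL tumors held 0 to 4.48 normalized counts of *Slc7a9*, and knockdown tumors 45.4 to 109.6 (limma adjusted p = 1.63e-06). For *Slc3a1* the ranges were 0.947 to 12.3 and 26.2 to 64.0 (limma adjusted p = 1.14e-04). *Slc28a2*, a nucleoside carrier, held 16.4 to 53.0 in CTL and 65.6 to 106 in knockdown tumors. Over all 252 listed solute carriers without *Slc2a1*, 27 were called higher and 10 lower (14.7%, against 10.2% of all genes). Under the minimum, *Slc16a12*, *Slc22a4* and *Slc9b2* were called lower. The call of *Slc16a12*, on chromosome 19, was lost with chromosome medians removed (-1.01, limma adjusted p = 0.0791). That of *Slc22a4* was lost with a pseudocount of 8 (-0.96) and without knockdown replicate 2 (-0.90).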
